A study of Mus musculus with 8 samples.

Results

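This section describes 10 genes that mark Kupffer cells, the resident macrophages of the liver, in the livers of control, endotoxemic and LGK974-treated mice. The genes are *Clec4f*, *Vsig4*, *Timd4*, *Cd5l*, *Marco*, *Adgre1*, *C1qa*, *C1qb*, *C1qc* and *Folr2*. They were taken as a list of known markers, and each of the 10 was found once among the 23282 rows of the count files. Control mice received saline, endotoxemic mice received 25 mg/kg lipopolysaccharide (LPS), and the LGK974 group received 60 mg/kg LGK974 besides 25 mg/kg LPS. The labels of the LGK974 group name LGK974 only, its LPS and doses come from the description of the experiment, and no group received LGK974 without LPS. LGK974 blocks Porcupine, the enzyme that makes Wnt proteins fit for secretion. All mice were C57BL/6, 4 weeks old and labelled male, injections were intraperitoneal, and livers were taken 6 h after LPS. The RNA came from whole liver, so that a lower level of a marker can mean fewer cells of that type or less RNA per cell, and these cannot be told apart.

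Kupffer cells sit inside the liver sinusoids and take up bacteria, particles and aged blood cells from the portal blood. They carry Toll-like receptor 4, which senses LPS. Their identity genes include receptors for capture and clearance (*Clec4f*, *Vsig4*, *Timd4*, *Marco*, *Folr2*), the secreted protein of *Cd5l*, the surface protein F4/80 of *Adgre1* and the 3 chains of complement C1q.

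There were 8 deposited libraries. Endotoxemic libraries 3 and 4 held the same counts as libraries 1 and 2 on all 23282 rows, so each such pair entered as 1 sample and every group had 2 distinct libraries. Nothing in the labels ties a library to a separate mouse by name, so that p-values measure the spread between these libraries. Total counts per distinct library ranged from 9142116 to 15222439, and 3 counts, taken as the smallest signal that can be shown, equalled 0.197 to 0.328 CPM (the count scaled to the library total and to a common library size; counting error only). Whole-liver identity was checked with 7 hepatocyte genes, whose summed level was between 30400 and 108000 CPM in the 6 libraries. The sex of the libraries did not follow the labels. *Xist*, transcribed from the inactive X chromosome, had 1171 to 3115 counts in the control and endotoxemic libraries but 3 and 7 with LGK974. The Y-linked gene *Ddx3y* had 0 counts in each control and endotoxemic library and 1755 and 1392 in the LGK974 libraries. Sex and LGK974 treatment therefore cannot be told apart in any comparison with the LGK974 group, and no value without the libraries concerned can be given because they make up whole groups.

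The rows follow the chromosomes, but 579 of them carry a symbol whose gene lies over 2 Mb from its neighbours in the file, and on these the control counts and the other counts may belong to different genes. Of the 10 marker genes, 9 stood on rows in genomic order, with between 8 and 10 of the 10 nearest positioned rows lying within 2 Mb on the same chromosome. For *Cd5l*, 0 of 10 did. Changes between groups are given for the 9 genes in order only. All 9 passed edgeR's filter on low counts and had at least 15 counts in every library.

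After LPS alone, relative to saline, *Vsig4*, *Folr2*, *C1qc*, *Clec4f* and *C1qa* fell and *Marco* rose. *Vsig4* fell most, 6.78-fold, and *Marco* rose 13-fold. *C1qb*, *Adgre1* and *Timd4* did not pass the test. Thus 1 of 9 genes was higher and 5 were lower at a Benjamini-Hochberg adjusted p below 0.05 by edgeR's quasi-likelihood test. Over the 12219 rows in genomic order that were tested, 19.3% were higher and 22.7% were lower. The libraries did not overlap between groups for 5 lower genes and 1 higher gene, beside 39.3% and 37.1% of all these rows. The median log2 fold change of the 9 genes was −0.84, and that of all these rows was 0.

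**Figure D1:**
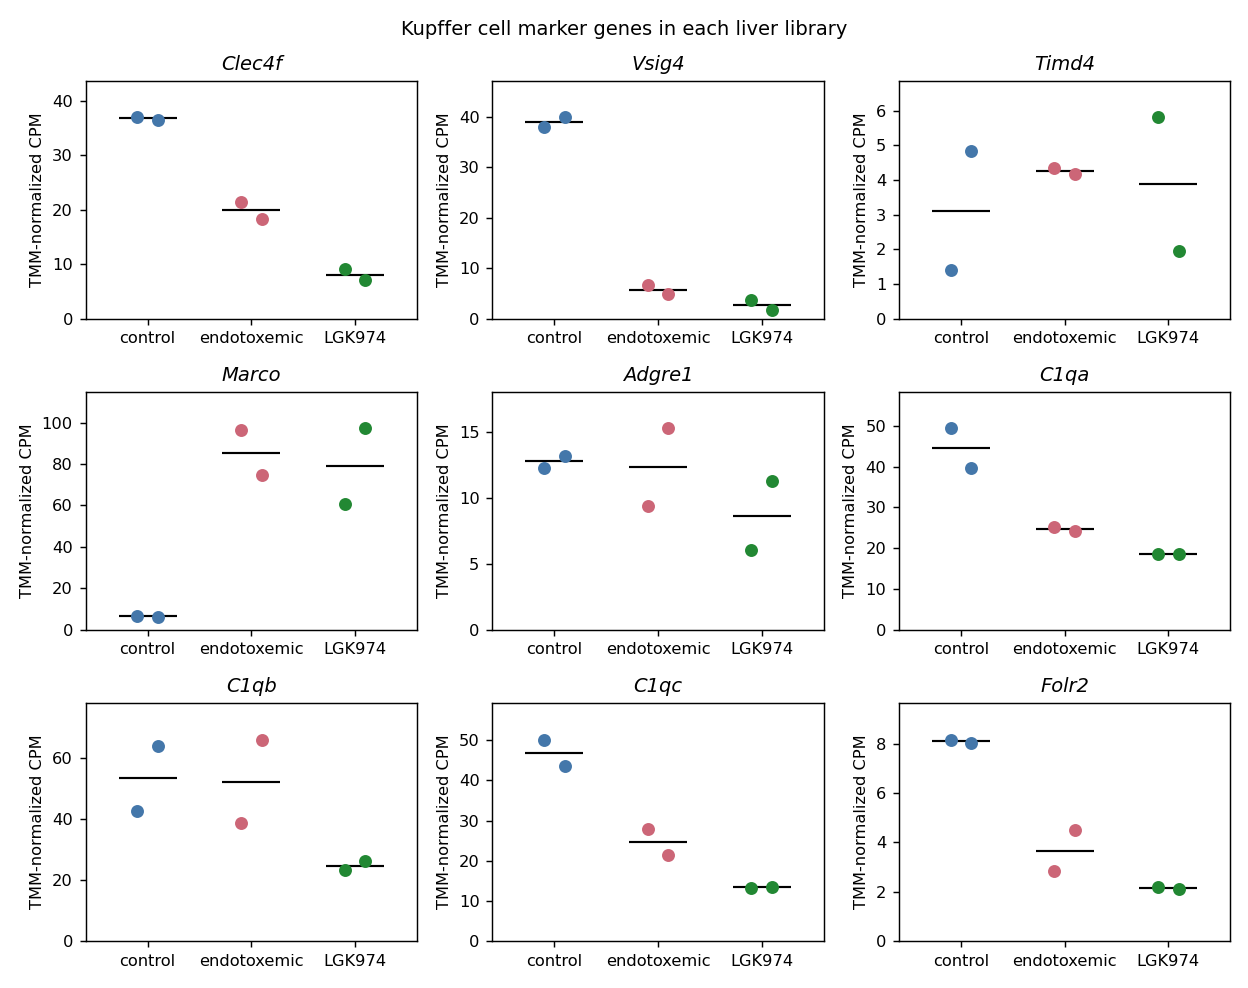
TMM-normalized CPM (vertical axes, from 0, each panel with its own scale) of 9 Kupffer cell marker genes in the 2 distinct libraries of each group; points are libraries and lines are group means. *Clec4f*, *Vsig4*, *C1qa*, *C1qc* and *Folr2* step down from control to endotoxemic to LGK974 libraries without overlap, and *Marco* is at 6.27 and 6.87 in the control group and at 60.8 to 97.2 in the others.

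The promoters of the genes with the largest changes in each direction, and that of *Clec4f*, the gene whose expression in mice is most restricted to Kupffer cells, are shown because these genes moved in opposite directions. Each window covers 250 bases before to 50 bases after the RefSeq start site on GRCm38.p6, read 5′ to 3′ on the minus strand. It lies at chr6:83656067-83656366 for *Clec4f*, at chrX:96293389-96293688 for *Vsig4* and at chr1:120504975-120505274 for *Marco*. Capitals mark the core of the motif of PU.1, the factor that macrophages depend on (GAGGAA).
Clec4f: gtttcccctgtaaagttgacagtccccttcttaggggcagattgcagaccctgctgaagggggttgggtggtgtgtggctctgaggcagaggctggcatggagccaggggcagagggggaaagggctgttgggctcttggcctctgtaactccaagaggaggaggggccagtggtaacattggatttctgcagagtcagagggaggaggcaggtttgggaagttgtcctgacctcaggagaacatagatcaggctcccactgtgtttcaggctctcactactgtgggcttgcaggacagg
Vsig4: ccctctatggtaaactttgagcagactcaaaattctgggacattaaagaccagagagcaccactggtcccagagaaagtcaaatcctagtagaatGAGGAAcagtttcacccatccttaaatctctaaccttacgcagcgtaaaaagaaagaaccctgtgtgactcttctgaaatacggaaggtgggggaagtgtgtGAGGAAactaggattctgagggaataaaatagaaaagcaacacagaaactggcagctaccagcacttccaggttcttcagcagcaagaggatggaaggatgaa
Marco: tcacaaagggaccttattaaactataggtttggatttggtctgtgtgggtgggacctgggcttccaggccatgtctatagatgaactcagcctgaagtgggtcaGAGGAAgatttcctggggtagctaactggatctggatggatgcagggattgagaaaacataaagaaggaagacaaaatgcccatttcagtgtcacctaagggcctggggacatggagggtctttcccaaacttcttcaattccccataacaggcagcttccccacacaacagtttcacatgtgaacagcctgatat

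The windows were searched on both strands for this motif and for an AP-1 site (TGACTCA), and no matches overlapped each other. The *Vsig4* window held GAGGAA 155 and 53 bases before the start site. The *Marco* window held it once, 146 bases before the start site. The *Clec4f* window held neither motif. Promoter windows were found for 8 of the 10 genes, 9 windows in all. GAGGAA occurred in 5 of these 9 windows, each of a different gene, compared with 28.3% of all 32851 windows of the same length. The AP-1 site occurred in 1 of 9 windows of the marker genes (*Folr2*) and in 5.2% of all windows. A match shows only that the letters are present.

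*Clec4f* encodes a galactose-binding C-type lectin of the Kupffer cell surface. The gene lies on the minus strand of chromosome 6 of GRCm38 from 83644542 to 83656187 and has 7 exons in its first annotated transcript. It had 399 and 558 counts in control, 196 and 172 in endotoxemic and 120 and 105 in LGK974 libraries. As TMM-normalized CPM, these were 36.8 ± 0.399 (SD, n = 2), 19.9 ± 2.16 and 8.08 ± 1.38. The 3 groups did not overlap, and the control libraries differed by less than either of the other pairs. The log2 fold change in the endotoxemic group was −0.89 (standard error 0.23, edgeR adjusted p = 0.0124). This call was lost when any 1 of the control or endotoxemic libraries was left out, with log2 fold changes from −0.94 to −0.78 and adjusted p from 0.0631 to 0.103.

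*Vsig4* encodes the complement receptor CRIg, which binds C3 fragments on circulating bacteria. It lies on the minus strand of chromosome X from 96247203 to 96293438, with 7 exons. Its counts were 408 and 610 in control, 61 and 45 in endotoxemic and 49 and 24 in LGK974 libraries. The endotoxemic libraries were far below the control libraries and close to each other. The level fell from 38.9 ± 1.41 to 5.73 ± 1.31 CPM, with a log2 fold change of −2.76 (standard error 0.37, edgeR adjusted p = 0.000352). It passed the threshold in each of the 16 alternative analyses of this comparison, with log2 fold changes from −2.96 to −2.54.

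*Marco* encodes a class A scavenger receptor that binds bacterial surfaces, and it is a gene that macrophages can raise in response to LPS. It lies on the minus strand of chromosome 1 from 120474538 to 120505024, with 17 exons. Its counts were 74 and 96 in control, 885 and 699 in endotoxemic and 806 and 1437 in LGK974 libraries. Both control libraries were below every other library. The level rose from 6.57 ± 0.42 to 85.5 ± 15.6 CPM in the endotoxemic group, and its log2 fold change was 3.7 (standard error 0.29, edgeR adjusted p = 1.89e-05). In the 16 alternative analyses, the log2 fold change of *Marco* was between 3.56 and 3.88 and passed the threshold each time.

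*Folr2*, the folate receptor β gene, marks resident macrophages of many tissues. It lies on the minus strand of chromosome 7 from 101839988 to 101857194, where 2 annotated genes, *Gm10602* and *Gm45319*, overlap it on the other strand, and whether strand was used in counting is not given in the sources used here. Its counts were 88 and 123 in control, 26 and 42 in endotoxemic and 29 and 31 in LGK974 libraries. The level fell from 8.1 ± 0.0911 to 3.66 ± 1.16 CPM, with a change on the log2 scale of −1.14 (standard error 0.38, edgeR adjusted p = 0.0376). The fall did not pass the threshold without any 1 of the control or endotoxemic libraries, where the adjusted p was 0.0654 to 0.262. The log2 fold change was −0.8 without endotoxemic library 1 and −1.51 without endotoxemic library 2.

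C1q, which binds antibody complexes and dying cells and starts the classical complement pathway, is assembled from the products of *C1qa*, *C1qb* and *C1qc*. In the liver, these genes are expressed by macrophages, whereas the proteases of the C1 complex are made by hepatocytes. The 3 genes stand side by side on the minus strand of chromosome 4, within 18.7 kb from 136880129 to 136898803, and each has 3 exons. *C1qa* had 532 and 609 counts in control, 232 and 228 in endotoxemic and 246 and 274 in LGK974 libraries. *C1qc* had 541 and 668 counts in control, 257 and 200 in endotoxemic and 175 and 200 in LGK974 libraries. The groups did not overlap for either gene once depth was taken into account. *C1qa* fell from 44.6 ± 6.77 to 24.8 ± 0.715 CPM, with a change on the log2 scale of −0.84 (standard error 0.21, edgeR adjusted p = 0.00988). *C1qc* fell from 46.9 ± 4.63 to 24.7 ± 4.75 CPM, with a change on the log2 scale of −0.93 (standard error 0.22, edgeR adjusted p = 0.00852).

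*C1qb* differed from its neighbours in how its libraries spread. It had 460 and 978 counts in control, 353 and 619 in endotoxemic and 308 and 385 in LGK974 libraries. Its CPM were 42.7 and 63.9 in the control group and 38.5 and 66 in the endotoxemic group, so that these groups overlapped almost fully. Its log2 fold change was −0.03 (95% interval −0.69 to 0.63, edgeR adjusted p = 0.942). Counts of *C1qb* per count of *C1qa* were 0.865 and 1.61 in control, 1.52 and 2.71 in endotoxemic and 1.25 and 1.41 in LGK974 libraries. The ratio of *C1qc* to *C1qa* varied less, from 0.877 to 1.11 in the control and endotoxemic libraries, against 0.711 and 0.73 with LGK974. These ratios compare counts of 3′ ends, which do not grow with transcript length. The calls of *C1qa* and *C1qc* were also sensitive to single libraries. That of *C1qa* was lost without control library 1 (log2 fold change −0.68, adjusted p = 0.107), endotoxemic library 1 (−0.82, 0.0811) or endotoxemic library 2 (−0.81, 0.0786). That of *C1qc* was lost without control library 1 (−0.83, adjusted p = 0.0797) or endotoxemic library 2 (−0.74, 0.0926).

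*Adgre1* encodes F4/80, the surface protein most used to stain mouse macrophages, and lies on the plus strand of chromosome 17 from 57358691 to 57483527. Its counts were 133 and 202 in control, 86 and 144 in endotoxemic and 80 and 167 in LGK974 libraries. Its level was 12.8 ± 0.607 CPM in the control group and 12.4 ± 4.22 CPM in the endotoxemic group, where 1 library lay below and the other above both control libraries. The log2 fold change was −0.05 (95% interval −0.87 to 0.77, edgeR adjusted p = 0.929). *Timd4* encodes TIM-4, a phosphatidylserine receptor that marks Kupffer cells of embryonic origin, and lies on the plus strand of chromosome 11 from 46810800 to 46844332. It was the lowest of the 9 genes in the control libraries, with 15 and 74 counts, or 1.39 and 4.84 CPM. It had 40 and 39 counts in endotoxemic and 77 and 29 in LGK974 libraries. The control libraries and the LGK974 libraries each spanned the endotoxemic values of *Timd4*. The log2 fold change was 0.42 in the endotoxemic group (95% interval −1.07 to 1.92, edgeR adjusted p = 0.633), an interval that includes changes of more than 2-fold in either direction.

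**Figure D2:**
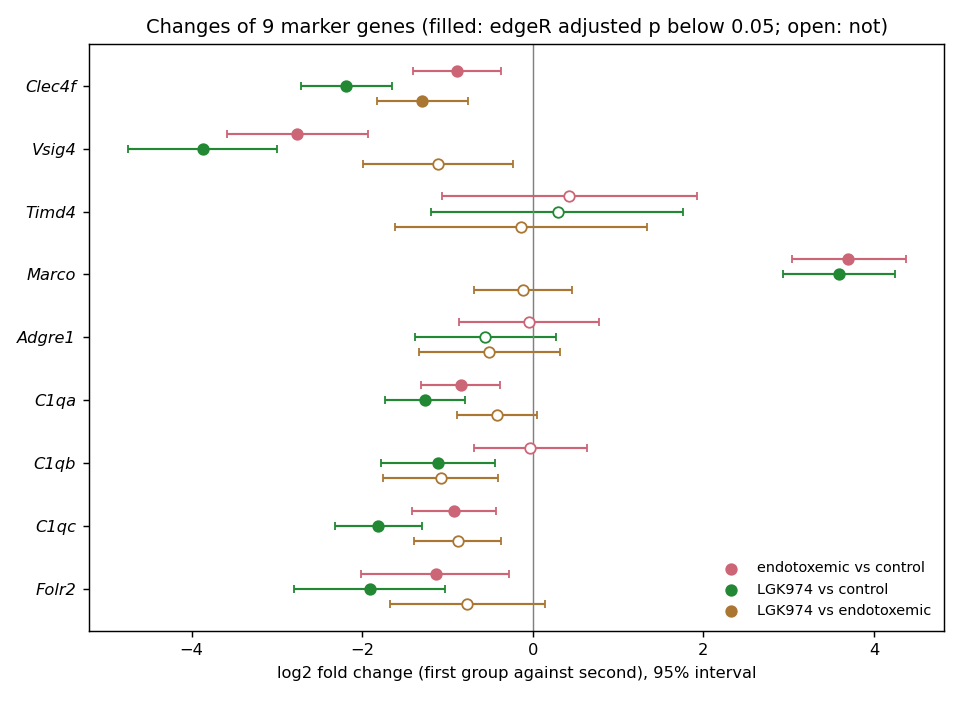
Log2 fold changes of 9 Kupffer cell marker genes (horizontal axis) with 95% intervals from the edgeR fit, for the endotoxemic group against the control group (red), the LGK974 group against the control group (green) and the LGK974 group against the endotoxemic group (brown); filled points passed an adjusted p of 0.05. In both comparisons with the control group, *Marco* lies near 3.6 to 3.7 and *Vsig4* lies lowest, and *Clec4f* has the single filled brown point.

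With LGK974, relative to LPS alone, *Clec4f* fell further, 2.46-fold, and the other genes did not pass the test. The log2 fold change of *Clec4f* was −1.3 (standard error 0.24, edgeR adjusted p = 0.0187), from 19.9 ± 2.16 to 8.08 ± 1.38 CPM, and both LGK974 libraries were below both endotoxemic libraries. Thus 0 of 9 genes were higher and 1 was lower, compared with 2.82% higher and 2.64% lower over the 12219 rows in order. At an unadjusted p below 0.05, 0 were higher and 4 were lower, beside 12% and 10.6% of these rows, and DESeq2 called 0 higher and 3 lower, beside 4.79% and 4.66%. The libraries did not overlap for 6 lower genes and 0 higher genes, beside 25.6% and 26.8%. All 9 log2 fold changes were negative, with a median of −0.77 beside 0.04 over all rows in order. The call of *Clec4f* did not hold without either control library (adjusted p = 0.0583 and 0.0575), without either endotoxemic library (0.149 and 0.12) or with only these 2 groups in the fit (0.0636), and in all 16 alternatives the log2 fold change lay between −1.48 and −1.13.

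Of the genes that did not pass, *C1qc* and *C1qb* had the smallest p. *C1qc* was at 24.7 ± 4.75 CPM in the endotoxemic group and at 13.4 ± 0.229 CPM in the LGK974 group (log2 fold change −0.88, 95% interval −1.39 to −0.37, edgeR adjusted p = 0.0551). *C1qb* was at 52.2 ± 19.4 and 24.7 ± 1.98 CPM (−1.08, 95% interval −1.76 to −0.41, edgeR adjusted p = 0.0689). Both of these genes passed with DESeq2, with adjusted p of 0.0216 and 0.017. Without LGK974 library 1, *Vsig4* (−1.81, edgeR adjusted p = 0.00496), *C1qc* (−0.86, 0.034) and *C1qb* (−1, 0.0457) passed, and without LGK974 library 2, *C1qc* (−0.9, 0.0464) and *C1qb* (−1.17, 0.0409) passed. The LGK974 libraries 1 and 2 of *Vsig4* were at 3.7 and 1.62 CPM, so that its value without library 1 rests on the lower library alone. With all libraries, *Vsig4* had a log2 fold change of −1.11 (95% interval −1.99 to −0.23, edgeR adjusted p = 0.13), *Folr2* had −0.77 (adjusted p = 0.293) and *C1qa* had −0.42 (adjusted p = 0.271). For these 3 genes both LGK974 libraries were below both endotoxemic libraries.

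*Marco*, *Adgre1* and *Timd4* overlapped between the LGK974 and endotoxemic groups. *Marco* was at 96.6 and 74.5 CPM after LPS alone and at 60.8 and 97.2 CPM with LGK974 (log2 fold change −0.11, 95% interval −0.69 to 0.46, edgeR adjusted p = 0.83). The intervals of *Adgre1* and *Timd4* were −1.34 to 0.32 and −1.62 to 1.34.

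With LGK974, relative to saline, *Vsig4*, *Clec4f*, *Folr2*, *C1qc*, *C1qa* and *C1qb* were lower and *Marco* was higher. These were 6 lower genes and 1 higher gene of 9, compared with 17.2% lower and 15.3% higher over all rows in order, with medians of −1.26 and 0.01. The libraries did not overlap for 7 lower genes and 1 higher gene, beside 34.2% and 33% of all rows in order. *Vsig4* was 14.7-fold lower, at 2.66 ± 1.47 CPM (log2 fold change −3.87, SE 0.39, edgeR adjusted p = 9.09e-05). Without LGK974 library 1 the log2 fold change of *Vsig4* was −4.57, and without LGK974 library 2 it was −3.39. *Clec4f* was 4.55-fold lower (−2.19, SE 0.24, adjusted p = 0.000154). *Folr2* and *C1qc* were 3.77-fold and 3.51-fold lower, at 2.14 ± 0.0646 and 13.4 ± 0.229 CPM. *C1qa* was 2.4-fold lower (edgeR adjusted p = 0.0017), and *C1qb* was 2.16-fold lower (adjusted p = 0.0182). *Marco* was 12-fold higher, at 79 ± 25.7 CPM (3.59 ± 0.29 SE, edgeR adjusted p = 2.71e-05). The calls of *Vsig4*, *Clec4f*, *Folr2*, *C1qc*, *C1qa* and *Marco* held in all 16 alternatives. That of *C1qb* was lost without control library 2 (log2 fold change −0.79, adjusted p = 0.157). *Adgre1* was at 8.67 ± 3.72 CPM and did not pass (log2 fold change −0.56, adjusted p = 0.271), except without LGK974 library 2 (−1.08, adjusted p = 0.0283). Both comparisons against saline use the same control libraries, and the third comparison uses LPS and LGK974 libraries that also enter these, so that these values are not independent of each other.

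The summed level of the 9 genes hid these opposite movements. It was 246 and 256 CPM in the control libraries, 233 in each endotoxemic library, and 143 and 179 with LGK974. Without *Marco*, the sum was 239 and 250 CPM in control, 137 and 159 in endotoxemic and 81.8 and 82.2 in LGK974 libraries, with no overlap between groups. *Marco* made up 2.79% and 2.45% of the sum in control, 41.4% and 31.9% in endotoxemic and 42.6% and 54.2% in LGK974 libraries. The share of *Vsig4* was 15.4% and 15.6% in the control libraries and between 0.905% and 2.86% in the others.

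**Figure D3:**
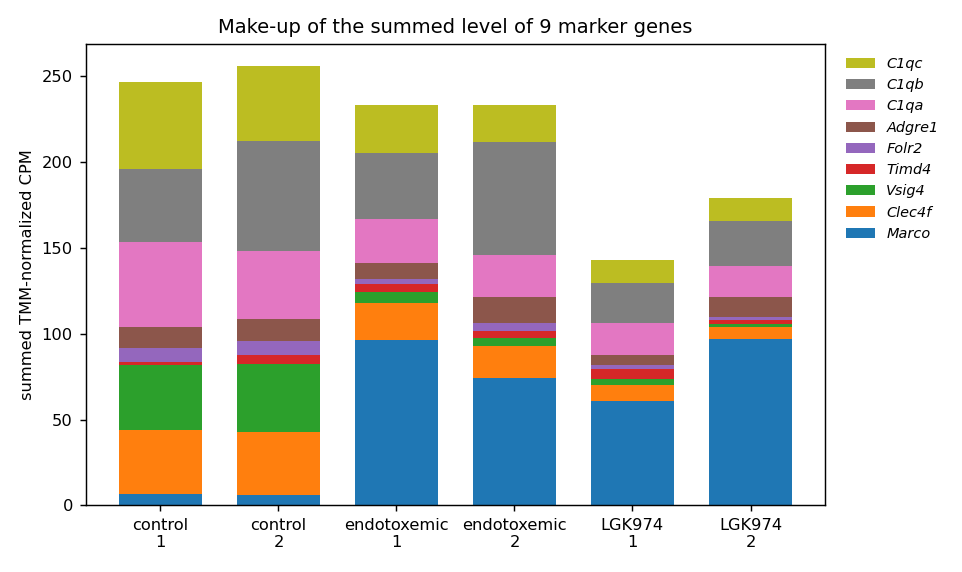
Summed TMM-normalized CPM (vertical axis) of 9 Kupffer cell marker genes in each distinct library, split by gene. *Marco* (bottom, blue) grows from under 3% of the bar in the control libraries to between 31.9% and 54.2% in the other libraries, and the remainder shrinks from 239 and 250 CPM to 81.8 and 82.2 CPM in the LGK974 libraries.

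*Cd5l* encodes an apoptosis inhibitor of macrophages that Kupffer cells secrete. The gene lies on the plus strand of chromosome 3 from 87357881 to 87371073, but its symbol stands among rows of chromosome 1, between *Ptgs2os* and *Ptgs2os2*, where *Ptgs2* belongs. The row with its symbol had 1186 and 1513 counts in control, 48 and 27 in endotoxemic libraries and 1 in each LGK974 library. The row where the gene belongs, which stands between *Fcrls* and *Fcrl1* and carries the symbol *Tnfrsf8*, had 0 counts in each control library, 192 and 151 in endotoxemic and 164 and 52 in LGK974 libraries. The row that carries the symbol *Ptgs2* had 0 counts in each control library, 4 and 5 in endotoxemic and 12 and 11 in LGK974 libraries. No change between groups is given for *Cd5l*.

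A second list held 15 other genes that Kupffer cells are known for, 12 of them on rows in order, and all 12 were tested. In the endotoxemic group relative to saline, 2 were higher and 4 were lower, beside 19.3% and 22.7% of all rows in order. The median log2 fold change was −0.53. Not all of the lower calls held when 1 control or endotoxemic library was left out. *Spic*, a transcription factor of iron-recycling macrophages, had 0 and 18 counts in control, 136 and 202 in endotoxemic and 72 and 118 in LGK974 libraries, and it rose after LPS (4.77 ± 0.74 SE, edgeR adjusted p = 0.000888). Its level in the control group rested on 1 library. The log2 fold change was 3.94 without control library 1 and 10.71 without control library 2, where only the control library with 0 counts remained. *Il18bp*, which encodes a decoy for interleukin 18, also rose (2.26, SE 0.26, adjusted p = 0.00015). *Slc40a1*, the iron exporter ferroportin, fell from 1054 and 1627 counts to 22 and 27 counts (−5.27, SE 0.65, adjusted p = 0.000218). *Kcna2*, a potassium channel gene, fell from 28 and 31 counts to 0 in each endotoxemic library, at least 7.14-fold lower against a floor of 3 counts per library. With LGK974, relative to LPS alone, 0 of the 12 were called in either direction by edgeR. At an unadjusted p below 0.05, 2 were higher and 3 lower, and DESeq2 called 0 higher and 2 lower. Over all rows in order, edgeR called 2.82% higher and 2.64% lower, and DESeq2 called 4.79% and 4.66%. At an unadjusted p below 0.05, 12% were higher and 10.6% lower. These shares also stand beside the counts of the later lists. With LGK974, relative to saline, 2 were higher and 5 were lower, beside 15.3% and 17.2% of all rows in order, shares that also stand beside the later lists. The higher genes were *Spic* (3.34, or 2.5 without control library 1 and 9.27 without control library 2) and *Il18bp* (1.44). Not all of the lower calls held when 1 library was left out. Among the lower genes was *Slc40a1*, with 44 and 242 counts in the LGK974 libraries (−3.36, or −2.63 without LGK974 library 1 and −4.93 without LGK974 library 2), and *Kcna2* had 0 and 1 counts in the LGK974 libraries.

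Of 19 general macrophage genes, 7 stood out of order, among them *Csf1r*, and 11 were tested. Of these, 4 were higher and 1 was lower after LPS than after saline, beside 19.3% and 22.7% of all rows in order. The median was 0.58. Some of the higher calls were lost when 1 control or endotoxemic library was left out. *Mpeg1*, a pore-forming protein of phagocytes, and *Spi1*, which encodes PU.1, rose by log2 fold changes of 2.41 and 2.26. *Cd68* had 102 and 100 counts in control and 102 and 167 in endotoxemic libraries (0.86, adjusted p = 0.0584), and *Lyz2* had 121 and 175, and 40 and 42 (−1.36, adjusted p = 0.052). With LGK974, relative to LPS alone, 0 of the 11 were called by edgeR, 1 was higher and 5 lower at an unadjusted p below 0.05, and DESeq2 called 1 higher and 1 lower. Compared with the control group, *Spi1* (1.88) and *Mpeg1* (1.59) were among 3 higher genes in the LGK974 group, and 1 gene was lower.

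Markers of other cells moved in the same libraries. Of 17 monocyte and neutrophil genes, 16 were in the files and 9 were tested in order. All 9 were higher after LPS than after saline, beside 19.3% of all rows in order, with a median log2 fold change of 4.62. Not all of these calls held when 1 control or endotoxemic library was left out. The summed level of the 9 genes was 13.7 and 16.1 CPM in control, 319 and 299 in endotoxemic and 210 and 195 in LGK974 libraries. *Clec4e*, a lectin of activated myeloid cells, had 0 counts in each control library and was at least 101-fold higher in the endotoxemic group and at least 61.1-fold higher in the LGK974 group. *Il1r2*, the decoy receptor of interleukin 1, had 1 count in each control library, 242 and 160 in endotoxemic and 149 and 184 in LGK974 libraries. The symbols *S100a8* and *S100a9* stood out of order. For these 9 genes, 8 were higher with LGK974 than after saline, and 0 were called between the LGK974 and endotoxemic groups by edgeR, where 0 were higher and 5 lower at an unadjusted p below 0.05 and DESeq2 called 0 higher and 2 lower. The part of these cells in the levels of *Marco* and the other marker genes was not tested.

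Sinusoidal endothelial genes mark the cells that line the vessels in which Kupffer cells sit. Among 14 that were tested, 2 were higher and 8 were lower after LPS, beside 19.3% and 22.7% of all rows in order. The median was −1.18 (−1.19 with *Tek* at its bound). Some of the lower calls were lost when 1 control or endotoxemic library was left out. *Lyve1* (3.03) and *Cdh5* (1.79) rose. *Kdr* fell (−5.36, or −6.19 without endotoxemic library 2), and *Tek*, with 0 counts in each endotoxemic library, was at least 16.3-fold lower. *Stab2* did not pass (−0.72, edgeR adjusted p = 0.0609), and *Clec4g* fell (−3.49). Compared with the endotoxemic group, *Clec4g* (−2.19, edgeR adjusted p = 0.0163) and *Ehd3* (−1.17, adjusted p = 0.0236) were lower in the LGK974 group, beside *Clec4f*, and *Tek* was at least 3.56-fold higher. These calls did not hold without either endotoxemic library, where the adjusted p was 0.0679 and 0.143 for *Clec4g*, 0.134 and 0.195 for *Ehd3*, and 0.198 and 0.216 for *Tek*. Without either control library, *Ehd3* (0.067 and 0.066) and *Tek* (0.0925 and 0.0922) did not pass, nor did *Tek* without LGK974 library 2 (0.0557). The log2 fold change of *Clec4g* was −2.96 without LGK974 library 1. Compared with the control group, 2 were higher in the LGK974 group, *Lyve1* (3.4) and *Cdh5* (2.04), and 8 were lower, with *Clec4g* (−5.68, or −6.45 without LGK974 library 1) and *Ehd3* (−4.25) changed most. Of the 7 hepatocyte genes, 5 were lower after LPS, beside 22.7% of all rows in order, with *Cyp2e1* (−3.64) and *Cps1* (−1.98) changed most. The call of *Cps1* was lost without endotoxemic library 1 or 2. Some other calls of this list were also lost when 1 control or endotoxemic library was left out. Relative to saline, 4 were lower with LGK974, including *Cyp2e1* (−2.75) and *Cps1* (−2.29, or −3.41 without LGK974 library 1 and −1.66 without LGK974 library 2). Between the LGK974 and endotoxemic groups, 0 of these 7 were called by edgeR, 2 were higher and 0 lower at an unadjusted p below 0.05, and DESeq2 called 2 higher and 0 lower.

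**Figure D4:**
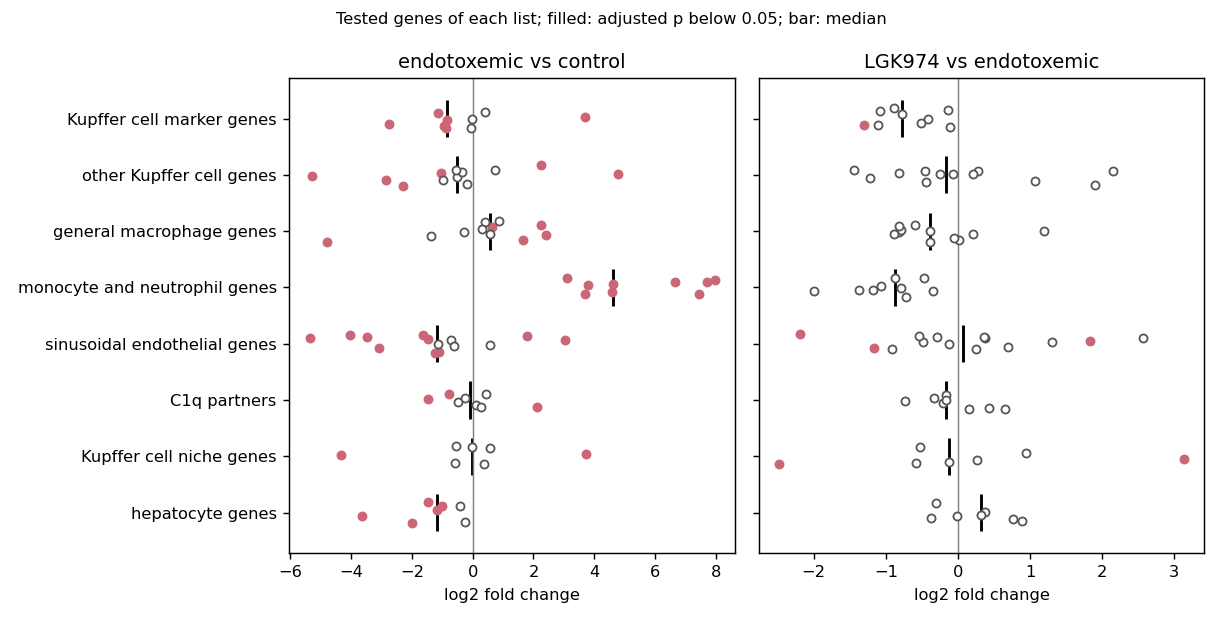
Log2 fold changes (horizontal axes) of the tested genes of each list for the endotoxemic group against the control group (left) and the LGK974 group against the endotoxemic group (right); filled points passed an edgeR adjusted p of 0.05, vertical bars are medians, vertical scatter has no meaning, and genes with 0 counts in a whole group are drawn at their bound, apart from *Kcna2* on the right (2.15, from 0 or 1 counts in each library). All 9 tested monocyte and neutrophil genes lie to the right on the left panel, where the marker genes have a median of −0.84.

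Genes that act with C1q and a list of genes tied to the Kupffer cell niche were also counted. Among 8 tested partners of C1q, 1 was higher and 2 were lower after LPS, beside 19.3% and 22.7% of all rows in order. *Cd93*, a surface protein related to C1q receptors, rose (2.11 ± 0.22 SE, edgeR adjusted p = 8.47e-05). *C1rl* (−1.46) and *C1qbp* (−0.78) fell. The call of *C1rl* was lost without control library 1 (adjusted p = 0.0505) or endotoxemic library 1 (0.0511) or 2 (0.0653), and that of *C1qbp* without control library 2 (0.137) or endotoxemic library 1 (0.126) or 2 (0.0732). The hepatocyte-made C1 protease genes had log2 fold changes of 0.1 for *C1ra* (adjusted p = 0.708) and −0.47 for *C1s1* (adjusted p = 0.0961). With LGK974, relative to LPS alone, 0 of the 8 were called by edgeR, 0 were higher and 1 lower at an unadjusted p below 0.05, and DESeq2 called 0 higher and 1 lower. Compared with the control group, *Cd93* was higher (2.27) and *C1s1* was lower (−1.2) in the LGK974 group.

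The list of Kupffer cell niche genes also holds transcription factors such as *Irf8*. Among its 7 tested genes, 1 was higher and 1 was lower after LPS, beside 19.3% and 22.7% of all rows in order. *Irf8*, a transcription factor of the myeloid lineage, rose in the endotoxemic group (3.73 ± 0.37 SE, edgeR adjusted p = 5.92e-05). *Gdf2*, which encodes BMP9, a ligand made by stellate cells, fell (−4.34, SE 0.6, adjusted p = 0.000452). Both were also called between the LGK974 and endotoxemic groups, with *Irf8* lower (−2.48, adjusted p = 0.00684) and *Gdf2* higher (3.14, adjusted p = 0.0217) in the LGK974 group. *Gdf2* had 177 and 224 counts in control, 9 and 5 in endotoxemic and 45 and 148 in LGK974 libraries, and its log2 fold change between the LGK974 and endotoxemic groups was 2.15 without LGK974 library 2. Its call was lost without either control library (adjusted p = 0.0539 and 0.0531) or either endotoxemic library (0.126 and 0.202). *Irf8* had 147 and 232 counts in control, 1757 and 1784 in endotoxemic and 634 and 308 in LGK974 libraries, and it was higher with LGK974 than after saline (1.25, adjusted p = 0.0204). The latter call was lost without either control library (0.13 and 0.0935) or without LGK974 library 1 (0.53, adjusted p = 0.0545). Between the LGK974 and endotoxemic groups, the log2 fold change of *Irf8* was −3.19 without LGK974 library 1, and its call was lost without endotoxemic library 2 (adjusted p = 0.0642). *Csf1* and *Il34*, which encode the ligands of the receptor CSF1R, stood on rows out of order.

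The pattern of *Clec4f* over the 6 libraries was compared with that of each of the 12219 rows in order by Pearson's r of log2(CPM + 0.5), as a description. The 5 most similar genes were *Cyp2c40* (r = 0.997), *Rnf167* (0.996), *Hamp2* (0.995), *Cyp2b9* (0.992) and *Fmod* (0.991). Of the other marker genes, *C1qc* was ranked 27 (0.979), *Vsig4* 152 and *C1qa* 154 (0.938 each) and *Folr2* 241 (0.92). *C1qb* and *Adgre1* had values of 0.761 and 0.508, *Timd4* one of −0.102 and *Marco* one of −0.784. In all, 337 rows had a value over 0.9, and the 6 points form 3 groups of 2. By *Xist* and *Ddx3y*, the LGK974 libraries also differ in sex from the others, so that sex and treatment cannot be told apart in these values.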

How the data were processed

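Whole-liver RNA of the 3 groups was made into 3′-end libraries with the Lexogen QuantSeq kit. The authors deposited read counts per gene symbol, as whole numbers without normalization. The submitters' processing notes name mm10, Bowtie2 and edgeR, and the counting program and its annotation are not given in the sources used here. The 23282 rows were placed by RefSeq positions on GRCm38 (23134 rows), and rows outside the longest ordered run (22346 rows) counted as out of order if their gene was over 2 Mb from the ordered genes beside them. Gene coordinates are those of GENCODE vM21.

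The 6 distinct libraries were fitted with edgeR 4.0.16 in R 4.3.3. After filterByExpr (12701 rows kept) and TMM normalization, a quasi-likelihood model with a term for group and no covariate was tested with Benjamini-Hochberg adjustment over all rows kept, at 0.05. SE were derived from the test, 95% intervals used its degrees of freedom (9.11), and CPM are TMM-normalized. The 16 alternatives changed the filter, the normalization, the test (DESeq2 1.42.0), the samples or the rows. The marker genes, gene lists and tests were chosen with earlier results of these data known. Genes of the other lists are named when they were among the 2 largest called rises or falls of a comparison. Others were set as markers whatever their values in this fit (*Csf1r*, *Cd68*, *Lyz2*, *Stab2*, *Clec4g*, *S100a8*, *S100a9*, *Xist* and *Ddx3y*). *C1ra*, *C1s1*, *Csf1* and *Il34* were named after their values were seen. Promoter sequences are from RefSeq on GRCm38.p6. The values of 1 gene of the macrophage list are not reported here.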

Additional observations from a re-analysis of the deposited data

How the results depend on the processing

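The counts of marker genes called higher were the same in all 16 alternatives of each comparison. For the endotoxemic group against the control group, the number called lower was 5 in the main analysis and in each alternative that kept all libraries, and ranged from 1 to 5 when 1 library was left out. Over all rows in order, 2772 of 12219 were called lower in the main analysis, and from 1683 of 12833 to 3360 of 12584 when 1 library was left out. For the LGK974 group against the control group, 6 were called lower, and 5 to 7 when 1 library was left out. The number called lower in the LGK974 group against the endotoxemic group varied with the setting, as did the number over all rows. It was 1 in the main analysis, 4 without a filter on low counts, 3 with DESeq2, 2 with total counts only, 5 with the identical libraries as separate samples, 0 with only these groups in the fit, 2 with the replicate block, and 0 to 4 when 1 library was left out. The rows in order called lower in the same analyses were 322 of 12219 in the main analysis, 743 of 16675 without a filter, 570 of 12219 with DESeq2, 361 of 12219 with total counts only, 1443 of 12075 with the identical libraries as separate samples, 144 of 11535 with only these groups, 316 of 12219 with the replicate block, and from 23 of 12855 to 980 of 12584 when 1 library was left out. The cause of these differences was not tested, except that leaving out a library leaves a group with 1 sample, which is assumed to vary like the others. Reversals concerned genes whose changes did not pass the test. For the endotoxemic group against the control group, *Adgre1* had a log2 fold change of 0 without a filter, and *C1qb* had 0.02 without a filter, 0 with total counts only and 0.01 without the 45S ribosomal RNA row. With 1 library left out, the log2 fold changes in this comparison ranged from −0.18 to 1.61 for *Timd4*, from −0.44 to 0.32 for *Adgre1* and from −0.47 to 0.37 for *C1qb*. For the LGK974 group against the endotoxemic group, they ranged from −1.11 to 0.45 for *Timd4* and from −0.49 to 0.19 for *Marco*, and for *Timd4* against the control group from −0.69 to 1.47. Deviations of same-numbered libraries had correlations of 0.185 between the control and endotoxemic groups, −0.014 between the control and LGK974 groups and 0.06 between the endotoxemic and LGK974 groups, so that the numbers were not taken as pairs. The replicate block added *C1qb* to the calls between the LGK974 and endotoxemic groups (−1.03, edgeR adjusted p = 0.0372) and changed no other call of a marker gene. No scaling moved the median of all rows in order by more than 0.1.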
